A study of Rattus norvegicus with 16 samples.

Results

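The constitutive proteasome was followed in the liver through 42 of the 17055 gene symbols of the count files. They are all symbols that begin with Psma, Psmb, Psmc, Psmd, Psmf or Psmg and a number, except Psmb8, Psmb9 and Psmb10, which encode the inducible subunits. By role they are 14 core subunits (7 alpha and 7 beta), 17 subunits of the regulatory particle (6 ATPases and 11 non-ATPases), 6 assembly chaperones, the inhibitor Psmf1 and 4 further symbols that the name pattern catches. The choice rests on names, but it was made with earlier results of these data known.

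The proteasome is the barrel-shaped protease that degrades proteins tagged with ubiquitin. Alpha subunits form the outer rings of the core and gate its entrance, and beta subunits form the inner rings, in which Psmb5, Psmb6 and Psmb7 carry the chymotrypsin-like, caspase-like and trypsin-like active sites. The regulatory particle caps the core, where non-ATPase subunits bind the ubiquitin chain and cut it off while a ring of ATPases unfolds the protein and feeds it into the barrel. In inflamed tissue the active beta subunits can be replaced by Psmb8, Psmb9 and Psmb10, and the transcription factor Nfe2l1 can raise the subunit genes when proteasome capacity falls short.

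Liver RNA came from male Sprague-Dawley rats aged 10 weeks, with tissue of 3 rats pooled in each library and 4 libraries in each of 4 groups. The Isoflurane-Sepsis (libraries 1 to 4) and Isoflurane-Control (libraries 5 to 8) rats were induced and maintained with isoflurane, a volatile anesthetic. The Propofol-Sepsis (libraries 9 to 12) and Propofol-Control (libraries 13 to 16) rats received ketamine and xylazine for induction and then propofol, an intravenous anesthetic. Sepsis was produced by cecal ligation and puncture, control rats had the celiotomy without it, and every rat stayed under anesthesia until the liver was taken 8 h later. The study asked how the septic liver differs between these anesthetics. A comparison of the anesthetics therefore also compares the induction drugs. It cannot be told apart from whatever separates the library name prefixes in the files, which differ between the anesthetics. The spread between libraries is a spread between pools of rats, and in whole liver fewer cells of a type and less RNA per cell cannot be told apart.

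Each library held between 14199422 and 49937173 reads on genes, of which 0.2335% to 0.3757% fell on the 42 symbols. Levels below are CPM, the reads of a gene relative to all reads on genes of its library, scaled by TMM factors. They are compared between libraries and never between genes, since no transcript lengths were used. The 10 hepatocyte markers were present in every library. Library 10 (Propofol-Sepsis) stood apart: its summed level of 8 brain markers was 372 CPM, where the other 15 libraries lay between 6.04 and 20.4 CPM, so results with propofol sepsis are also given without it. The summed level of 11 neutrophil and monocyte markers moved with sepsis, from 149 to 202 CPM in Isoflurane-Control libraries to 1256 to 2076 CPM in Isoflurane-Sepsis libraries, and from 389 to 646 CPM to 1159 to 3281 CPM under propofol. Lcn2, which hepatocytes also make in the acute phase, carried most of this sum. The other 10 markers went from 17.3 to 19.7 CPM to 36.1 to 116 CPM under isoflurane and from 18.7 to 26.8 CPM to 37.3 to 54.0 CPM under propofol, with Ly6c at 0 in every group. Summed lymphocyte markers went from 10.4 to 12.5 CPM to 19.9 to 34.3 CPM under isoflurane and from 14.4 to 17.2 CPM to 18.9 to 24.4 CPM under propofol, and summed endothelial markers from 159 to 194 CPM to 114 to 130 CPM and from 187 to 226 CPM to 156 to 163 CPM. The endothelial list was split. Means of Kdr, Stab2, Lyve1 and Vwf were lower with sepsis under both anesthetics, and those of Pecam1 and Cdh5 were higher. Under propofol mean Kdr went from 45.1 to 12.8 CPM and mean Pecam1 from 16.7 to 22.3 CPM. The part of these cells in the results was not tested.

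Of the 42 symbols, 39 had enough counts to be tested. The 3 others were Psma3l, Psma8, a testis form of an alpha subunit, and Psmb11, a thymus form of a beta subunit, none of which passed 0.408 CPM in any library. Psmc3ip, a recombination factor that is no proteasome subunit, was tested, lay between 1.18 and 2.83 CPM and was called in none of the 5 comparisons by edgeR. All 31 core and regulatory subunits and the 7 assembly factors, meaning the 6 chaperones and the inhibitor Psmf1, were tested in each comparison. A gene is called when its adjusted p (edgeR's quasi-likelihood test, Benjamini-Hochberg over all genes tested) is below 0.05, and fold changes are on the log2 scale with their standard error. Many subunit genes have processed copies in the rat genome, and how reads matching both were counted is not given in the sources used here.

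The promoters of the 3 catalytic genes, of the ATPase gene Psmc3 and of the 4 genes called under both anesthetics in the same direction and in every alternative at the 0.05 threshold are shown because Nfe2l1 binds antioxidant response elements, whose core is TGACNNNGC. They are RefSeq sequences of build GRCr8, which is not the rn5 build named for the count files, and run 5′ to 3′ along the gene from 150 bases before to 5 bases after its start. Capitals mark matches on either strand to TGACNNNGC, CCAAT or GGGCGG.
Psmb5 (chr15:32047375-32047529, minus strand): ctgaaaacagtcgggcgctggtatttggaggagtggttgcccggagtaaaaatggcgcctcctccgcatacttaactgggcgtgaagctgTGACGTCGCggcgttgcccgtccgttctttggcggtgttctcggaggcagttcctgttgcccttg
Psmb6 (chr10:55737738-55737892, plus strand): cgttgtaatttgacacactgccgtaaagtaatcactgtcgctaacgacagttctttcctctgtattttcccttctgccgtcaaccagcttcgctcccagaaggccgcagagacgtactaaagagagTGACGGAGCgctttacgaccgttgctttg
Psmb7 (chr3:42827466-42827620, minus strand): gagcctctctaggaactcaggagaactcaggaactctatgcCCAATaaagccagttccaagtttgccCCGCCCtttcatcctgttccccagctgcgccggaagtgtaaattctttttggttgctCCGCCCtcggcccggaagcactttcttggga
Psmc3 (chr3:97487493-97487647, plus strand): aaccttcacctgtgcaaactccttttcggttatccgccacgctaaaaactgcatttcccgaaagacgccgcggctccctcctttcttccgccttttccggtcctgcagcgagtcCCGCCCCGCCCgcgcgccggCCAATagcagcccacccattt
Psmd8 (chr1:93608685-93608839, minus strand): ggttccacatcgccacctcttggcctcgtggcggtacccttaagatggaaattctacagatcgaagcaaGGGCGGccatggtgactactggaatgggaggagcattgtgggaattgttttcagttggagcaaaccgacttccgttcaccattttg
Psmd5 (chr3:38548486-38548640, minus strand): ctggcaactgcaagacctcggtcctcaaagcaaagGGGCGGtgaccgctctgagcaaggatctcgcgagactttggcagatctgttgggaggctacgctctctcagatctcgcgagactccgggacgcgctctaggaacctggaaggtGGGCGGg
Psmf1 (chr3:160720911-160721065, minus strand): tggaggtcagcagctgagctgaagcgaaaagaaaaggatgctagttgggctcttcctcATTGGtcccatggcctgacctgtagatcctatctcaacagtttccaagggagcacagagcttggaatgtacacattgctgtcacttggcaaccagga
Psmg1 (chr11:48755036-48755190, minus strand): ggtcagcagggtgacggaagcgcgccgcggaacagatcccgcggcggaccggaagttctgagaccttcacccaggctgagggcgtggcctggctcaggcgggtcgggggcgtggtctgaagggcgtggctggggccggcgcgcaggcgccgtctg

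The stretch of Psmb5 held 1 match to TGACNNNGC, whose first base lay 60 bases before the start, and that of Psmb6 held 1 match 24 bases before it. Those letters were in none of the stretches of Psmb7, Psmc3, Psmd8, Psmd5, Psmf1 and Psmg1, and that of Psmg1 held none of the 3 motifs. Windows from 250 bases before to 50 after the start were found for 27 of the 31 subunits and for all 7 assembly factors. TGACNNNGC was present in 6 of the 27 subunit windows (22.2%), in 4 of 13 core windows (30.8%) and in 2 of 14 regulatory windows (14.3%). It was present in 12.1% of 33469 rat promoters of the same length and in 13.9% of those of the measured symbols. CCAAT, the letters of the CCAAT box, was present in 9 of 13 core windows (69.2%) and 5 of 14 regulatory windows (35.7%), beside 37.5% of all promoters and 37.3% of those of the measured symbols. GGGCGG, the letters of the GC box, was present in 11 of 13 core windows (84.6%) and 8 of 14 regulatory windows (57.1%), beside 33.1% of all promoters and 53.9% of those of the measured symbols. In Psmb2 the TGACNNNGC match shares a base with a CCAAT match. A match describes these letters and is not a site.

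Under isoflurane sepsis came with 1 called change among the 14 core genes, 5 among the 17 regulatory genes and 4 among the 7 assembly factors. Of the 39 tested members 8 fell and 2 rose, beside 24.4% of all tested genes that fell and 25.7% that rose. The 20.5% of members that fell lies near the share of all genes, and the 5.13% that rose lies below it. Psma4, the ATPase genes Psmc3, Psmc5 and Psmc6, the lid subunit Psmd6, the chaperones Psmd5 and Psmg1 and the inhibitor Psmf1 fell, and Psmd8 and the chaperone Psmd10 rose. With library totals in place of TMM 14 members fell and 1 rose, and by DESeq2 11 fell and 1 rose. Over all genes 2965 fell and 2241 rose with library totals, and 2519 fell and 2739 rose by DESeq2. EdgeR with TMM scaling gave 2524 and 2659. The plot of fold changes by role gives every member.

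**Figure D1:**
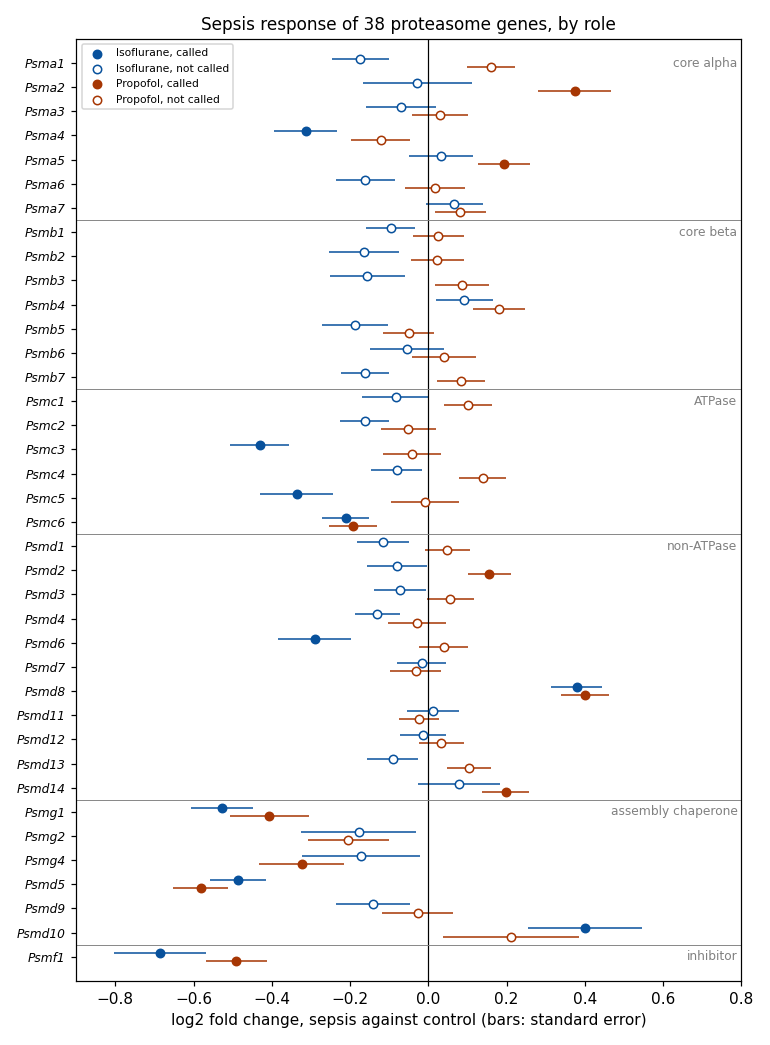
Log2 fold change of sepsis against control (horizontal axis, bars are standard errors) for 38 proteasome genes grouped by role (vertical axis), under isoflurane (blue) and propofol (dark orange), with filled points for called genes. Psmd8 lies to the right of 0 and Psmd5, Psmg1 and Psmf1 to the left of 0 under both anesthetics, and the 6 ATPase genes lie to the left of 0 under isoflurane.

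Psmc3 (Rpt5) is one of the ATPases of the base. It was at 93.4, 87.0, 75.2 and 79.1 CPM in libraries 1 to 4 and at 117, 115, 111 and 109 CPM in libraries 5 to 8. Every septic library was below every control library. The log2 fold change was -0.43 ± 0.076 (SE, n = 4 and 4, adjusted p = 0.00188 by edgeR), a fall of 25.8%. Psmc5 (Rpt6), another ATPase of the ring, was at 81.2, 74.4, 58.9 and 66.4 CPM with sepsis and at 90.4, 91.1, 85.0 and 88.5 CPM without, again with no overlap (log2 fold change -0.34 ± 0.092, adjusted p = 0.0147 by edgeR). Psmc6 (Rpt4) was at 52.4, 56.4, 56.1 and 56.2 CPM with sepsis, and its controls were at 63.4, 64.9, 65.0 and 63.3 CPM. Its log2 fold change of -0.21 ± 0.060 (adjusted p = 0.0173 by edgeR) rests on libraries that did not overlap. The fold changes of Psmc1, Psmc2 and Psmc4 were -0.083, -0.16 and -0.081 and were not called by edgeR with TMM scaling. Psmc2 was called lower by DESeq2 and with library totals, so that 4 of the 6 ATPase genes fell there.

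In the core, Psma4, whose tail closes the gate of the alpha ring, was the 1 of 14 genes called. Its levels were 89.3, 78.2, 67.5 and 76.5 CPM in Isoflurane-Sepsis and 99.9, 95.7, 97.1 and 94.7 CPM in Isoflurane-Control libraries. The groups did not overlap, and the log2 fold change was -0.31 ± 0.081 (adjusted p = 0.0113 by edgeR). The other alpha genes ranged from -0.17 (Psma1) to 0.067 (Psma7) on the log2 scale. Psma2 was split among the septic libraries: at 123 and 114 CPM libraries 1 and 2 were above every control, and at 80.1 and 81.5 CPM libraries 3 and 4 were below every control, whose levels were 108, 101, 101 and 95.8 CPM. Its log2 fold change was -0.028 ± 0.14 (adjusted p = 0.879 by edgeR), and without libraries 3 and 4 it was 0.21 (adjusted p = 0.0230).

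None of the 7 beta genes was called under isoflurane in the main edgeR fit. Psmb7 had an unadjusted p below 0.05, and DESeq2 called the same 1 gene. Psmb5 was at 62.1, 60.6, 49.8 and 52.4 CPM with sepsis and at 68.8, 64.9, 59.6 and 63.2 CPM without (log2 fold change -0.19 ± 0.084, adjusted p = 0.0906 by edgeR). The highest septic libraries overlapped the lowest control, and Psmb5 was called without library 1 or with library totals. Psmb6 was at 36.5, 33.2, 26.3 and 30.4 CPM in libraries 1 to 4 and at 34.0, 31.4, 32.1 and 33.7 CPM in libraries 5 to 8, so that septic libraries lay on either side of the controls (log2 fold change -0.054 ± 0.094, adjusted p = 0.657 by edgeR). Psmb7 was at 72.4, 75.3, 68.0 and 70.7 CPM with sepsis and at 85.1, 77.3, 78.8 and 79.9 CPM without. Every septic library of Psmb7 was below every control, with a log2 fold change of -0.16 ± 0.062 (adjusted p = 0.0536 by edgeR). Psmb7 was called in 5 of 15 alternatives: library totals, DESeq2, a mean CPM of at least 1, the fit of all 16 libraries and library 2 left out. The 3 active-site genes thus had fold changes of the same sign, and none passed the main test.

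Among the 11 non-ATPase genes 1 rose and 1 fell under isoflurane. Psmd6 (Rpn7), a lid subunit, was at 46.7, 42.2, 34.5 and 36.1 CPM with sepsis and at 49.7, 49.5, 46.9 and 49.2 CPM without. The ranges lay just apart, and the log2 fold change of -0.29 ± 0.094 (adjusted p = 0.0289 by edgeR) was not called without libraries 3 and 4 or without any one of libraries 3 to 8 (adjusted p from 0.00552 to 0.0816 over the 15 alternatives). Psmd4 (Rpn10), a receptor for ubiquitin chains, was at 67.8, 64.2, 66.0 and 69.4 CPM with sepsis and at 71.3, 74.7, 74.1 and 73.1 CPM without. Those libraries did not overlap either, but the log2 fold change of -0.13 ± 0.058 did not pass the test (adjusted p = 0.0871 by edgeR). It was called by DESeq2, with library totals and without libraries 3 and 4. Psmd14 (Rpn11), the enzyme that cuts ubiquitin chains off the substrate, had a log2 fold change of 0.079 ± 0.10 (adjusted p = 0.555 by edgeR). Its levels of 52.3, 45.7, 37.0 and 44.0 CPM in septic libraries surrounded the 45.2, 44.1, 37.2 and 43.0 CPM of the controls.

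Under propofol the same number of members was called, 10 of 39, but 5 rose and 5 fell. Over all tested genes 20.4% rose and 21.7% fell, and 12.8% of the members were called in each direction. The genes that rose were the core genes Psma2 and Psma5 and the regulatory genes Psmd2, Psmd8 and Psmd14. The ATPase gene Psmc6 fell, and the other 4 that fell were the assembly factors Psmd5, Psmg1, Psmg4 and Psmf1. With library totals 2 rose (Psma2 and Psmd8) and 5 fell, and over all genes 1675 rose and 2700 fell, where TMM scaling gave 2107 and 2246. By DESeq2 7 rose and 4 fell, with Psma1 and Psmb4 added and Psmg4 lost. Without library 10, 6 rose and 3 fell.

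Psma2 (alpha 2) was at 158, 132, 176 and 178 CPM in libraries 9 to 12 and at 121, 124, 128 and 121 CPM in libraries 13 to 16. Library 10 was the lowest septic library and still above every control. The log2 fold change was 0.37 ± 0.093 (SE, n = 4 and 4, adjusted p = 0.00994 by edgeR), a rise of 29.6%. Psma5 (alpha 5) was at 93.7, 88.8, 101 and 105 CPM with sepsis and at 87.3, 81.7, 88.1 and 81.7 CPM without, close to an overlap (log2 fold change 0.19 ± 0.067, adjusted p = 0.0425 by edgeR). Psmb4 (beta 7), a beta subunit with no active site, was at 166, 155, 175 and 175 CPM with sepsis and at 137, 157, 149 and 146 CPM without. Library 10 lay within the range of the controls, and the log2 fold change of 0.18 ± 0.067 missed the threshold (adjusted p = 0.0536 by edgeR). It passed in 5 of 14 alternatives: without library 10 or library 14, with RLE size factors, by DESeq2 and in the fit of all 16 libraries. Under isoflurane Psmb4 was at 162, 149, 134 and 145 CPM with sepsis and at 147, 141, 132 and 135 CPM without, and these libraries overlapped (log2 fold change 0.092 ± 0.073, adjusted p = 0.318 by edgeR). Psma4, which fell under isoflurane, was at 106, 92.2, 111 and 115 CPM with sepsis under propofol and at 110, 119, 118 and 112 CPM without. Its libraries overlapped there (log2 fold change -0.12 ± 0.075, adjusted p = 0.215 by edgeR).

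The active-site genes were not called under propofol. Psmb5 was at 68.8, 64.0, 69.1 and 75.5 CPM with sepsis and at 69.0, 75.3, 71.7 and 69.9 CPM without. Psmb6 was at 39.2, 34.4, 40.9 and 40.6 CPM with sepsis and at 34.1, 39.0, 36.0 and 41.0 CPM without. Septic and control libraries of both genes overlapped, with log2 fold changes of -0.050 ± 0.066 (adjusted p = 0.564 by edgeR) for Psmb5 and 0.041 ± 0.082 (adjusted p = 0.715) for Psmb6. Psmb7, at 96.3, 85.3, 89.0 and 97.1 CPM with sepsis and 85.0, 84.0, 86.8 and 89.6 CPM without, also overlapped (log2 fold change 0.083 ± 0.062, adjusted p = 0.301 by edgeR). Of the 7 beta genes the main edgeR fit called 0, 1 had an unadjusted p below 0.05, and DESeq2 called Psmb4.

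In the regulatory particle, Psmd14 was at 60.6, 58.1, 61.3 and 66.3 CPM in Propofol-Sepsis and at 55.9, 52.1, 52.4 and 53.7 CPM in Propofol-Control libraries. These groups did not overlap (log2 fold change 0.20 ± 0.060, adjusted p = 0.0237 by edgeR). Psmd2 (Rpn1), a scaffold of the base, was at 238, 226, 238 and 246 CPM with sepsis and at 221, 204, 212 and 210 CPM without (log2 fold change 0.16 ± 0.055, adjusted p = 0.0441 by edgeR). Its groups did not overlap. The calls of Psma5, Psmd2 and Psmd14 were each lost with library totals, without a limit on low counts, in the fit of all 16 libraries and without any one of libraries 9, 11, 12, 14, 15 and 16, and the first 2 also without library 13. Over the 14 alternatives the adjusted p reached 0.135, 0.183 and 0.0857. Psmc6 was at 72.0, 64.6, 65.0 and 68.3 CPM with sepsis and at 77.0, 75.3, 81.6 and 73.3 CPM without, and was the 1 ATPase gene called (log2 fold change -0.19 ± 0.061, adjusted p = 0.0280 by edgeR). Without any one of libraries 10 to 15, or without a limit on low counts, its call was lost (adjusted p from 0.0101 to 0.0895). Psmc3, at 126, 104, 120 and 129 CPM with sepsis and 123, 124, 121 and 123 CPM without, had a log2 fold change of -0.041 ± 0.073 (adjusted p = 0.678 by edgeR), and library 10 was the lowest of these 8 libraries. Psmd4 was at 83.4, 73.5, 85.9 and 89.5 CPM with sepsis and at 78.8, 89.3, 86.4 and 83.1 CPM without, with overlap (log2 fold change -0.028 ± 0.074, adjusted p = 0.779 by edgeR).

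**Figure D2:**
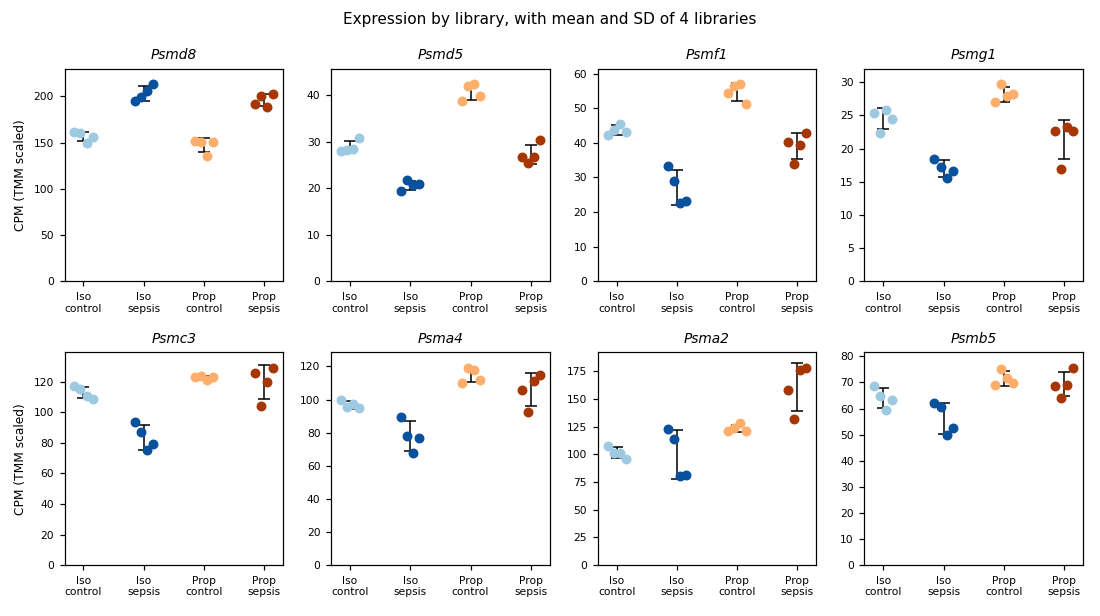
CPM of 8 proteasome genes (vertical axes, from 0) in the 16 libraries, by group (horizontal axes), with points for libraries and black bars that span 1 SD on either side of the mean of 4. Psmd8 was higher and Psmd5, Psmf1 and Psmg1 lower in every septic library than in every control library of the same anesthetic, while Psmb5 overlapped.

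Psmd8 (Rpn12), a lid subunit, rose under both anesthetics. Its levels were 195, 199, 206 and 213 CPM in Isoflurane-Sepsis and 161, 160, 150 and 156 CPM in Isoflurane-Control libraries. Under propofol they were 192, 200, 189 and 203 CPM with sepsis and 152, 151, 136 and 151 CPM without. In both cases every septic library was above every control. The log2 fold changes were 0.38 ± 0.065 (adjusted p = 0.00172 by edgeR) and 0.40 ± 0.061 (adjusted p = 0.000757), which are rises of 30.1% and 32.1%. The difference between them was -0.031 ± 0.080 (adjusted p = 0.835 by edgeR). Psmd8 kept its call in every alternative of either comparison at the 0.05 threshold.

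Psmd5 (S5b), which escorts ATPases of the base during assembly, fell under both. It was at 19.3, 21.7, 20.6 and 20.8 CPM in libraries 1 to 4 and at 28, 28.2, 28.4 and 30.8 CPM in libraries 5 to 8. Under propofol the levels were 26.6, 25.3, 26.7 and 30.3 CPM with sepsis and 38.7, 41.9, 42.3 and 39.7 CPM without. No septic library overlapped its controls, with log2 fold changes of -0.49 ± 0.072 (adjusted p = 0.000821 by edgeR) and -0.58 ± 0.071 (adjusted p = 0.000246).

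Psmf1 (PI31), which binds the core and inhibits it in the test tube, had the largest fall among the called members under isoflurane. It was at 33.3, 29.1, 22.7 and 23.3 CPM with sepsis and at 42.2, 43.7, 45.5 and 43.2 CPM without. Under propofol it was at 40.3, 33.8, 39.4 and 42.8 CPM with sepsis and at 54.3, 56.4, 56.9 and 51.3 CPM without. Every septic library was below its controls, and libraries 3, 4 and 10 were the lowest of their groups. The log2 fold changes were -0.69 ± 0.12 (adjusted p = 0.00161 by edgeR) and -0.49 ± 0.079 (adjusted p = 0.00101), and their difference of -0.20 ± 0.15 was not called (adjusted p = 0.413).

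Psmg1 (PAC1), which with Psmg2 starts the alpha ring, was at 18.5, 17.3, 15.5 and 16.7 CPM in Isoflurane-Sepsis and 25.4, 22.3, 25.9 and 24.5 CPM in Isoflurane-Control libraries. In Propofol-Sepsis it was at 22.6, 16.9, 23.2 and 22.7 CPM, and in Propofol-Control at 27, 29.7, 27.9 and 28.2 CPM. The groups did not overlap under either anesthetic. Log2 fold changes were -0.53 ± 0.079 (adjusted p = 0.000890 by edgeR) and -0.41 ± 0.10 (adjusted p = 0.0101), and Psmg1 was still called without library 10. Its partner Psmg2 had log2 fold changes of -0.18 and -0.21 and was not called in either. Psmg4 (PAC4) was at 6.78, 6.99, 8.98 and 8.09 CPM with sepsis under propofol and at 9.14, 10.2, 9.24 and 9.89 CPM without, a log2 fold change of -0.32 ± 0.11 (adjusted p = 0.0355 by edgeR), and was not called by DESeq2, in the fit of all 16 libraries or without any one of libraries 9, 10 and 12 to 16. Psmd10 (gankyrin), a chaperone of the ATPase Psmc4, was at 3.29, 4.32, 3.42 and 4.23 CPM with sepsis under isoflurane and at 3.24, 3.07, 2.51 and 2.75 CPM without. Its log2 fold change was 0.40 ± 0.15 (adjusted p = 0.0457 by edgeR), and 11 of 15 alternatives lost the call: library totals, DESeq2, no limit on low counts, libraries 3 and 4 left out and each of libraries 2 to 8 left out (adjusted p from 0.0254 to 0.118). Under propofol Psmd10 was at 4.12, 3.18, 3.37 and 3.53 CPM with sepsis and at 2.96, 2.56, 2.71 and 3.94 CPM without, with overlap (log2 fold change 0.21 ± 0.17, adjusted p = 0.353 by edgeR). Of the 7 assembly factors 3 fell and 1 rose under isoflurane and 4 fell under propofol, with medians of -0.18 and -0.32. These are 42.9% and 57.1% of the list falling, beside 24.4% and 21.7% of all tested genes, and 14.3% rising under isoflurane, beside 25.7%. Without libraries 3 and 4 the isoflurane median was -0.030, with the same 3 falls called.

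The core was then set against the regulatory particle. Under isoflurane 11 of 14 core genes and 14 of 17 regulatory genes had a fold change below 0, with medians of -0.13 and -0.083 on the log2 scale, and the median over all tested genes was 0.0061. Of the core genes 1 fell (7.14%), and of the regulatory genes 4 fell (23.5%) and Psmd8 rose, beside 24.4% of all tested genes that fell. The regulatory share is thus that of all genes. Without libraries 3 and 4 the medians were -0.025 and -0.046. These libraries were left out after seeing the data and had the lowest means of their group in both classes. A smaller fall without them was therefore bound to appear. Under propofol the medians were 0.061 for the core (12 of 14 above 0) and 0.039 for the regulatory particle (10 of 17 above 0), beside -0.0016 over all genes, but with library totals the regulatory median was -0.016 and that of the core 0.0068. Without library 10 they were 0.11 and 0.068. The signs of the medians thus were shared by core and regulatory particle within each anesthetic under TMM scaling. When all tested symbols of the c and d series were counted as regulatory, which adds the chaperones Psmd5, Psmd9 and Psmd10 and Psmc3ip, the medians stayed at -0.083 and 0.039.

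In single libraries the mean log2 level of the 14 core genes, relative to controls of the same anesthetic, was 0.061, -0.044, -0.29 and -0.16 in libraries 1 to 4. The regulatory mean was -0.016, -0.072, -0.21 and -0.11 in the same libraries. Control libraries of isoflurane ranged from -0.043 to 0.063 for the core and from -0.056 to 0.032 for the regulatory particle. Libraries 2, 3 and 4 were thus below all isoflurane controls in both classes, library 2 by little, while library 1 was within the control range in both. In libraries 9 to 12 the core mean was 0.092, -0.061, 0.12 and 0.19 and the regulatory mean 0.069, -0.040, 0.062 and 0.14. Propofol control libraries stayed between -0.024 and 0.023 in both classes, so that library 10 was below all of them and the other 3 septic libraries above.

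**Figure D3:**
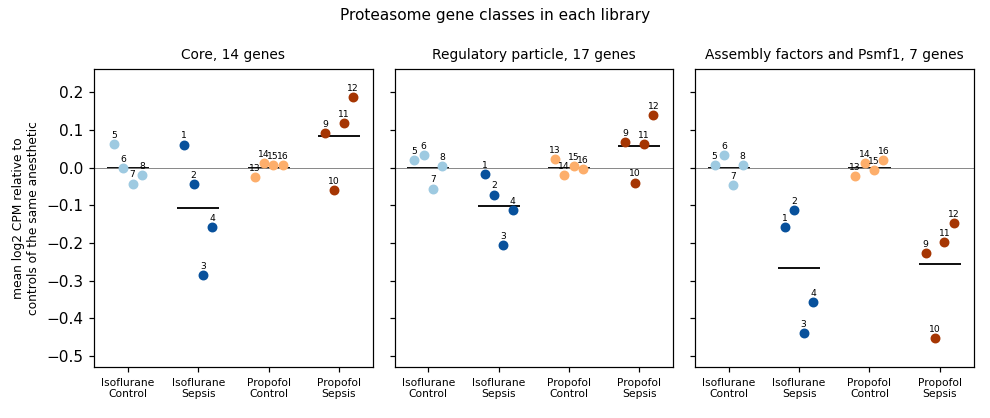
Mean log2 CPM of core, regulatory and assembly genes in each library relative to the controls of the same anesthetic (vertical axis), by group (horizontal axis), with library numbers at the points and lines at group means. Septic libraries scatter more widely than controls, and all 8 lie below their controls in the assembly class.

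Core minus regulatory particle was 0.077, 0.028, -0.078 and -0.044 in libraries 1 to 4 and 0.024, -0.021, 0.057 and 0.047 in libraries 9 to 12, beside -0.047 to 0.042 in the 8 control libraries. Core genes took 38.5% to 41.2% of the summed core and regulatory CPM in the 16 libraries, and 39.2% to 40.8% in the controls. The balance of the core and its cap thus moved little in any group, and septic libraries lay on both sides of the controls. Summed core CPM was 1045 ± 102 (SD, n = 4) in Isoflurane-Sepsis and 1110 ± 35.9 in Isoflurane-Control libraries, and 1340 ± 97.9 in Propofol-Sepsis and 1245 ± 14.2 in Propofol-Control libraries. The assembly sum was 110.5 ± 12.1, 146.9 ± 1.34, 141.9 ± 13.7 and 182.4 ± 5.12 CPM in the same order, and there no septic library reached a control of its anesthetic. Psmf1 is part of this sum, with means of 27.1, 43.6, 39.1 and 54.7 CPM in that order.

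The response to sepsis differed between the anesthetics in 0 of 39 members by edgeR, where 2.72% of all tested genes were called. Before adjustment 9 members had p below 0.05, all with the lower change under isoflurane. Over all 10621 tested genes 2452 had such a p, 1151 of them with the lower change under isoflurane. DESeq2 called Psma1, Psmb7 and Psmc3, and over all genes it called 502 higher and 337 lower. The difference was below 0 in 29 of the 31 subunits, with medians of -0.18 in the core and -0.14 in the regulatory particle and -0.016 over all tested genes. For fits with libraries left out the share of all genes called is not given here, so their counts cannot be set against it. Without library 1 edgeR called 6 members, and without library 10 it called Psmc3. Without libraries 3 and 4 it called 0, and the medians were -0.078 and -0.080. Psmc3 had the smallest p, with a difference of -0.40 ± 0.11 (adjusted p = 0.0600 by edgeR). Psma1 (alpha 6) followed with -0.34 ± 0.097 (adjusted p = 0.0669). Its levels were 91.0, 79.0, 74.2 and 75.9 CPM in Isoflurane-Sepsis, 93.9, 89.7, 86.9 and 91.0 CPM in Isoflurane-Control, 115, 113, 109 and 124 CPM in Propofol-Sepsis and 106, 95.9, 103 and 105 CPM in Propofol-Control libraries. In 3 of 4 septic libraries Psma1 was below every control under isoflurane, and in all 4 it was above every control under propofol, although edgeR with TMM scaling called neither change on its own. DESeq2 called the rise under propofol, and the fall under isoflurane was called with library totals, in the fit of all 16 libraries and without library 1.

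Across the 31 subunits the fold changes under the anesthetics, which share no library, had a Pearson r of 0.667, and of 0.531 without Psmd8, beside 0.762 across 10182 genes. Genes are not independent replicates, and these values describe the tables. The change was higher under propofol in 29 of 31 subunits (93.5%) and in 50.4% of all genes.

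**Figure D4:**
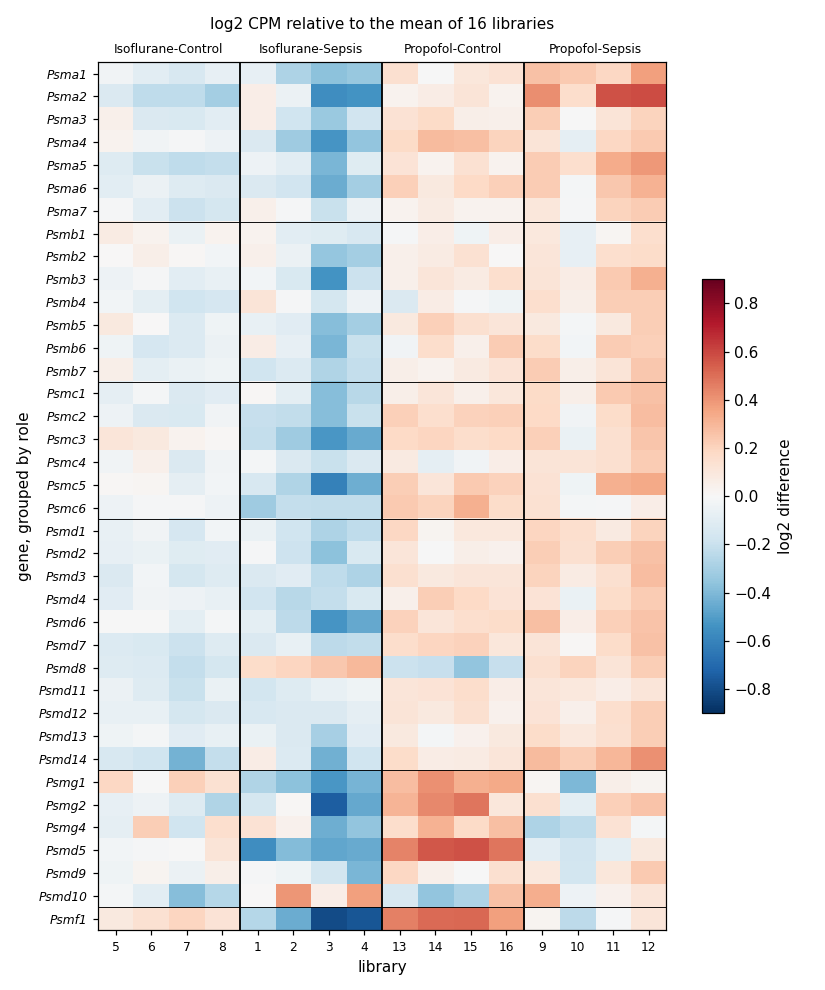
Log2 CPM of 38 proteasome genes (vertical axis, grouped by role) in 16 libraries (horizontal axis, grouped) relative to each gene's mean over all libraries, with red above and blue below the mean. Values run from -0.81 to 0.59, and the isoflurane libraries are mostly below and the propofol libraries mostly above the mean.

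Levels also differed between the anesthetics in the same state. These comparisons reuse the libraries of the sepsis comparisons and are not independent of them. In control livers 28 of 39 members were lower under isoflurane than under propofol and 0 were higher by edgeR, beside 21.7% and 21.6% of all tested genes. No member was higher at an unadjusted p below 0.05 or by DESeq2, which called 27 lower. Summed hepatocyte markers were at 187087 to 198167 CPM in Isoflurane-Control and 147347 to 158571 CPM in Propofol-Control libraries, and their part in the difference was not tested. Every marker of that list had the higher mean under isoflurane, by unlike amounts. Means of Alb, the highest of the list, were 89750 and 64807 CPM, and those of Serpina1 20038 and 18933 CPM. The members that were lower include all 7 alpha genes, 3 of 7 beta genes, 5 of 6 ATPases and 9 of 11 non-ATPases. The median over the 31 subunits was -0.18 on the log2 scale, and 30 of them were below 0. Psmd8 was the exception, at 0.087 ± 0.052 (adjusted p = 0.200 by edgeR). Scaling shifts all genes by nearly the same amount, so the difference between the subunit median and that of all genes, -0.18, cannot change with it. With library totals the median of all genes itself moved to -0.15. Over all genes 1139 were then called higher and 3824 lower, where TMM scaling gave 2225 and 2243. With library totals 37 members were called lower. In the fit of all 16 libraries 14 members were called lower.

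Psmd14 had the largest difference among the 31 subunits. Its control levels, at most 45.2 CPM under isoflurane and at least 52.1 CPM under propofol, differed by -0.34 ± 0.064 (adjusted p = 0.00190 by edgeR). In the core Psma2 differed by -0.28 ± 0.050 (adjusted p = 0.00123). Psmb5 differed by -0.16 ± 0.055 (adjusted p = 0.0391), with control libraries that did not overlap but lay as close as 68.8 and 69.0 CPM. Among assembly factors Psmd5 differed most, by -0.49 ± 0.054 (adjusted p = 6.82e-05).

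In septic livers 24 of 39 members were lower under isoflurane and 0 were higher by edgeR, beside 8.66% and 10.6% of all tested genes. No member was higher at an unadjusted p below 0.05 or by DESeq2, which called 26 lower. Of the 24, 7 were core genes, 15 regulatory genes and 2 assembly factors, Psmd5 and Psmf1. The median over the 31 subunits was -0.34, a difference of -0.33 from that of all genes. Scaling shifts all genes by nearly the same amount, so this difference cannot change with it and is no check of the scaling. Library totals moved the median of all genes to -0.16. Library totals called 594 of all genes higher and 2177 lower, where TMM scaling gave 1092 and 890. With library totals 35 members were called lower. Psma2 had the largest difference among the subunits, -0.70 ± 0.17 (adjusted p = 0.0251 by edgeR). All 6 ATPase genes were called, from -0.56 (Psmc5) to -0.27 (Psmc4). Summed hepatocyte markers were at 173373 to 199415 CPM in Isoflurane-Sepsis and 149154 to 160595 CPM in Propofol-Sepsis libraries. There mean Alb was 75507 and 59102 CPM and mean Serpina1 19091 and 18346 CPM, while mean Cyp2e1 was lower under isoflurane. The count of members called lower changed with the libraries kept. It was 1 without library 9, without library 11 or without library 12, 13 without library 2 or library 3, 1 (Psma1) without libraries 3 and 4, and 26 without library 10. The share of all genes called in these fits is not given here. A loss of calls among all genes therefore cannot be told apart from a loss particular to the members.

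Other genes of the pathway were counted beside the members. Of the inducible subunits, Psmb10 was at 18.0, 15.5, 19.4 and 29.5 CPM in Isoflurane-Sepsis and 15.9, 14.2, 13.4 and 14.1 CPM in Isoflurane-Control libraries (log2 fold change 0.52 ± 0.18, adjusted p = 0.0401 by edgeR), and library 4 was far above the rest. The call was lost with library totals, without libraries 3 and 4 and without any one of libraries 3 and 5 to 8. Psmb9, at 10.7, 9.92, 12 and 16.7 CPM with sepsis and 10.2, 8.66, 9.06 and 9.77 CPM without (0.39 ± 0.16, adjusted p = 0.0680) and Psmb8 (0.075 ± 0.18, adjusted p = 0.755) did not pass. Under propofol edgeR and DESeq2 called 0 of the 3, and 0 had an unadjusted p below 0.05, with Psmb8 at -0.26 ± 0.12, Psmb9 at -0.19 ± 0.17 and Psmb10 at 0.024 ± 0.13. In control livers all 3 were lower under isoflurane, from -0.81 (Psmb10, adjusted p = 3.68e-05 by edgeR) to -0.22 (Psmb8).

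Psme1 and Psme2, which form the activator cap that can replace the regulatory particle, were not called in the main edgeR fit of either sepsis comparison. Under isoflurane their log2 fold changes were 0.10 ± 0.085 and 0.28 ± 0.10 (adjusted p = 0.350 and 0.0524 by edgeR). Psme2 was called there in 6 of 15 alternatives, among them DESeq2, RLE size factors and the fit of all 16 libraries. Under propofol the log2 fold changes were -0.19 ± 0.076 and -0.021 ± 0.093 (adjusted p = 0.0680 and 0.876 by edgeR). Psme1 was called there with library totals and without library 11. Of the 4 activator genes the main edgeR fit called 0 in either sepsis comparison, 2 and 1 had an unadjusted p below 0.05, and DESeq2 called 1 and 0. In control livers all 4 were called with TMM scaling, with Psme1, Psme2 and Psme3 lower under isoflurane (-0.30, -0.35 and -0.35) and Psme4 higher (0.16, adjusted p = 0.0408 by edgeR).

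Nfe2l1 rose under both anesthetics. It was at 34.5, 35.6, 42.7 and 38.2 CPM in libraries 1 to 4 and at 26.8, 27.7, 27.5 and 27.6 CPM in libraries 5 to 8, without overlap (log2 fold change 0.47 ± 0.086, adjusted p = 0.00242 by edgeR). Under propofol it was at 32.1, 34.3, 32.3 and 35.4 CPM with sepsis and at 28.4, 26, 32.3 and 26.5 CPM without. There library 15 reached the septic range, and the log2 fold change of 0.24 ± 0.077 (adjusted p = 0.0331 by edgeR) was lost with library totals, without a limit on low counts and without any one of libraries 12, 13, 14 and 16. Of the 14 regulators and partners listed 11 were tested, of which 3 rose (Nfe2l1, Akirin2 and Zfand5) and 1 fell (Ngly1, an enzyme needed to activate Nfe2l1) under isoflurane. The 27.3% that rose lies near the 25.7% of all tested genes. Under propofol Nfe2l1 rose and Fbxo7 fell, 9.09% of the list in each direction beside 20.4% and 21.7% of all genes. Pomp, the maturation factor of the core, is listed at 0 to 0.129 CPM in all libraries and was not tested. Whether so low a count reflects the gene or the way reads were assigned cannot be told from these data. Of 15 genes for ubiquitin and for delivery of substrates, 7 rose and 1 fell under isoflurane, and 6 rose and 3 fell under propofol. The shares that rose were 46.7% and 40.0%, beside 25.7% and 20.4% of all tested genes, and those that fell 6.67% and 20%, beside 24.4% and 21.7%.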

How the data were processed

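RNA-seq of liver was made by the authors from polyadenylated RNA with a strand-keeping kit and single-end reads. The unit of the deposited files is counts: whole numbers of reads per gene symbol, not normalized. The submitters' processing notes name STAR and rn5. For the counting program and the annotation, a name is not given in the sources used here. The 2 entries that name no gene did not enter library sizes or tests. Reads outside genes were 21.61% to 25.39% and ambiguous reads 1.074% to 1.351% of each library.

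Groups came from the sample labels. Septic and control livers were compared under each anesthetic, and the anesthetics in each state, in fits of 4 libraries against 4. The test was edgeR's quasi-likelihood test (version 4.0.16, R 4.3.3) after TMM scaling, with filterByExpr at a minimum count of 10 and total of 15. The difference between the responses was tested in a fit of all 16 libraries. P-values were adjusted by Benjamini and Hochberg over all genes tested. CPM used TMM factors (0.9204 to 1.094) from the genes that pass the limit on low counts over all libraries, and each SD covers the 4 libraries of 1 group. Pairs of libraries of a group gave a chi-square per degree of freedom of 3.351 to 96.35, so none was counted as deposited more than once. The fits were tested on simulated data. Alternatives were RLE size factors, library totals, DESeq2 1.42.0 (the tool of the study), a limit at a mean CPM of 1 or no limit on low counts, an adjusted p below 0.01, all 16 libraries in 1 fit, and each library left out in turn. Leaving out libraries 3 and 4 together and counting all symbols of the c and d series as regulatory were added after seeing the data.

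The members and the lists were chosen with earlier results of these data known. Values in every library are given for Psmb5, Psmb6, Psmb7, Psmd4 and Psmd14, for the member with the smallest p in each role and sepsis comparison, for the largest called rise and fall, and for the 2 members with the smallest interaction p. Of the non-members, the rule gave values for Psmb8, Psmb9, Psmb10, Psme1, Psme2, Nfe2l1 and Pomp, which here are fold changes or levels, and the other members named were added after their values were seen. The pathway lists hold 3 inducible subunits, 4 activators, 14 regulators and partners, and 15 genes for ubiquitin and delivery, of which Ecpas and Paaf1 were not matched and Sem1 and Ufd1 are listed as Shfm1 and Ufd1l. Marker lists of macrophages, lymphocytes, endothelium, stellate cells and cholangiocytes were also summed. They lay between 323 and 492, 10.4 and 34.3, 114 and 226, 222 and 502, and 10.9 and 21.8 CPM per library.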

Additional observations from a re-analysis of the deposited data

Results flagged for a closer look

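A single library lay far from the other 3 of its group in 5 of 120 gene and group values examined, by Dixon's criterion, which chance meets in about 1 in 20 groups. Psmc6 was at 52.4 CPM in library 1 (Isoflurane-Sepsis), where the others were at 56.1 to 56.4 CPM. Psmg1 was at 16.9 CPM in library 10 (Propofol-Sepsis), the library with the brain markers, where the others were at 22.6 to 23.2 CPM. Psmd5 was at 30.8 CPM in library 8 (Isoflurane-Control) and at 28 to 28.4 CPM in the rest. Psmd8 was at 136 CPM in library 15 (Propofol-Control) and at 151 to 152 CPM in the rest. Psme1 was at 99.1 CPM in library 4 (Isoflurane-Sepsis) and at 78.9 to 80.6 CPM in the rest. The calls of Psmc6 under isoflurane, Psmg1, Psmd5 and Psmd8 held with each of these libraries left out.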

How the results depend on the processing

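Psmd8 (higher) and Psmd5, Psmf1 and Psmg1 (lower) under both anesthetics, Psmc3, Psmc5, Psmc6 and Psma4 (lower) under isoflurane and Psma2 (higher) under propofol kept direction and call in every alternative at the 0.05 threshold. Under isoflurane the 2 members called higher became 1 with library totals, DESeq2, no limit on low counts or an adjusted p below 0.01, and 1 to 2 with a library left out. The 8 called lower became 14 with library totals, 11 with DESeq2 and 4 at 0.01, and 7 to 11 with a library left out. Under propofol the 5 called higher became 2 with library totals, no limit on low counts or 0.01 3 in the fit of all 16 libraries and 7 with DESeq2, and 2 to 6 with a library left out. The 5 called lower became 2 at 0.01, 4 with DESeq2 and 3 to 4 with a library left out. The 0 members lower in the interaction became 3 with DESeq2 and 0 to 6 with a library left out. In control livers the 28 lower under isoflurane became 17 at 0.01 and 14 in the fit of all libraries. In septic livers the 24 became 0 at 0.01, 1 to 28 with a library left out and 1 without libraries 3 and 4. The fold change of Psma2 under isoflurane turned to 0.214 (adjusted p 0.0230) without libraries 3 and 4. The cause of these changes was not tested. Of the single-gene results, 89 calls were lost and 39 gained over all alternatives. No paired analysis was possible because the labels number the libraries 1 to 16 and the groups share no number. Pools of 3 rats and 4 libraries per group limit the precision of small changes.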
